A study of Homo sapiens with 16 samples.

Results

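The genes described here are 29 genes of cholesterol synthesis and its control by SREBP2, of 56865 genes in all, and they were followed in 16 poly(A) RNA-seq libraries of a human lung cancer line treated with the compound MS78. They were chosen by name and role, with earlier results of these data known, so their counts are no independent test of the pathway. They are 20 enzymes of the pathway from acetyl-CoA to cholesterol, 6 genes of the SREBP2 switch, and 3 genes that move or store sterol. GGPS1, counted among the enzymes, lies on a branch that leaves the route to cholesterol. All 29 had enough reads to be tested. NCI-H1299 is a non-small cell lung carcinoma line that has lost p53, and these cells are called p53-null. A derivative of it with stable expression of the mutant Y220C of this tumour suppressor is called p53-Y220C. MS78 is known as a bifunctional compound designed to bring an acetyltransferase to p53 Y220C, so the p53-null line shows what it does without that target. Each line was exposed for 24 h to 10 µM MS78 or to the vehicle DMSO, with 4 libraries for each of the 4 combinations, which are named Null DMSO and Null MS78 for the first line and Y220C DMSO and Y220C MS78 for the second. The p53-Y220C cells were grown with 500 µg/mL of G418 and the p53-null cells without it, and both were otherwise kept in the same medium. Wherever the lines are compared, the clone or pool, the transgene and G418 therefore cannot be told apart. Whether a group's libraries stem from different cultures is not in the labels, and the p-values then measure only the spread among these libraries, which may be technical.

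Cells make cholesterol from acetyl-CoA through mevalonate, the isoprenoid diphosphates, squalene and lanosterol. The pathway is held by a feedback loop: the precursor of the transcription factor SREBP2 sits in the endoplasmic reticulum bound to its escort SCAP, and INSIG proteins keep the pair there while sterols are plentiful. When membrane sterol falls, SCAP carries SREBP2 to the Golgi, where the site-1 and site-2 proteases release its active part, which then raises transcription of nearly all genes of the pathway. INSIG1 and the gene of SREBP2 itself, SREBF2, are among its targets.

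The libraries held 20.3 to 27.7 M (in units of 1000000) estimated reads each. Levels are given as CPM, counts per 1000000 TMM-scaled reads in tested genes, and comparisons between genes as TPM, which also corrects for transcript length. The p53 gene was at 49.1 to 78.6 CPM in the p53-null libraries, at 569 to 627 CPM in Y220C DMSO and at 1443 to 1550 CPM in Y220C MS78, in the order the labels of the lines give. Keratins KRT8 and KRT18 and the mesenchymal filament gene VIM were high in every library, while the epithelial markers EPCAM and CDH1 did not pass 1.97 CPM. Of the 5 hepatocyte markers, APOB and TTR had 0 reads in every library and ALB and APOA1 at most 4, while SERPINA1 was present in all, at 22.0 ± 1.38 CPM in Null DMSO, 24.2 ± 0.406 in Null MS78, 10.4 ± 0.826 in Y220C DMSO and 7.44 ± 0.140 in Y220C MS78. SERPINA1, also known as an acute-phase gene, was called lower with MS78 in p53-Y220C cells (log2 -0.49) and lower in the p53-Y220C line under DMSO (log2 -1.07) and MS78 (log2 -1.70). Its part in the results was not tested. Leukocyte transcripts were found in 8 libraries: the first replicate in each DMSO group and the other 3 replicates in each MS78 group had 55 to 99 reads of the leukocyte gene PTPRC, and the other 8 had 0 or 1. The summed level of 22 leukocyte markers was 63.3 to 128 CPM in the first set and 2.90 to 12.9 CPM in the second. Since this moves with treatment, counts or medians for the 29 genes are also given within each set, and its part in single results was not tested.

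MS78 raised most of the pathway in both lines. In p53-null cells 25 of 29 genes rose, or 86.2% of them, where 14.8% of all 15687 tested genes were called higher. MBTPS2 was the 1 gene that fell, against 13.3% of all genes called lower, and PMVK, LBR and SCAP passed the test in neither direction. In p53-Y220C cells 25 of 29 also rose, where 24.9% of all genes were called higher. There 0 of 29 were called lower, against 23.6% of all genes, and this count was also 0 at an unadjusted p under 0.05 and with DESeq2. The genes that did not pass in p53-Y220C cells were PMVK, LBR, MBTPS1 and MBTPS2. The median log2 fold change of the 29 was 1.45 in the p53-null line and 1.65 in the other, beside 0.01 and -0.01 over all tested genes. In each line 18 of the 29 rose at least 2-fold, and 24 passed the test upward in both. Of all 15687 tested genes, 162 in p53-null cells and 372 in p53-Y220C cells were called and rose at least 2-fold. How many of all genes passed upward in both lines was not counted. With scaling to library totals alone, the share of higher genes among all called genes was 38.2% in p53-null cells and 34.4% in p53-Y220C cells, against 52.7% and 51.4% with TMM, and the counts of rising members were then 24 and 25. With that scaling LBR in p53-null cells (log2 -0.09) and MBTPS1 and MBTPS2 in p53-Y220C cells (log2 -0.12 and -0.16) were also called lower.

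**Figure D1:**
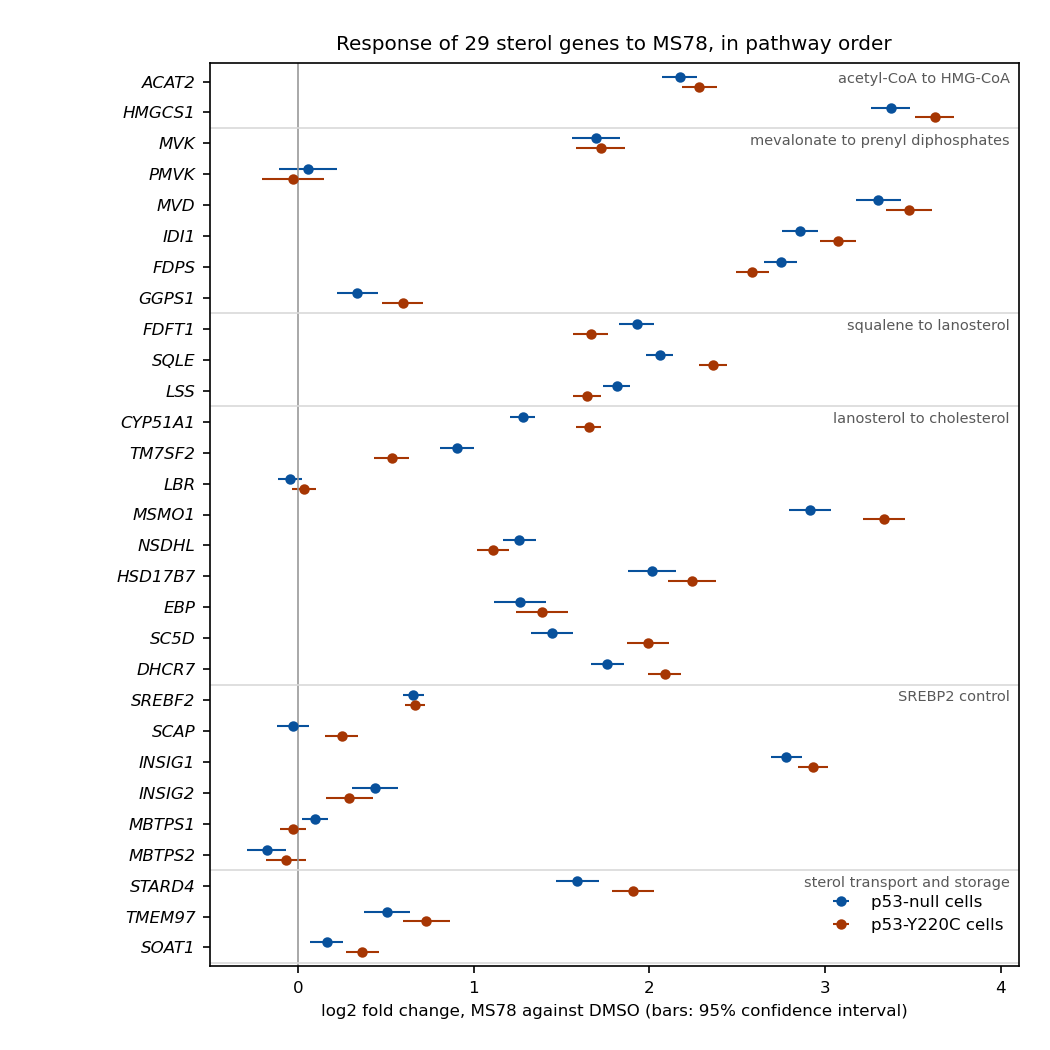
Log2 fold change with MS78 against DMSO for the 29 genes in pathway order, in p53-null cells (blue) and p53-Y220C cells (red), with 95% confidence intervals from edgeR. HMGCS1, MVD, MSMO1, IDI1, INSIG1 and FDPS have the highest values in both lines, from 2.59 to 3.62, while PMVK, LBR, MBTPS1 and MBTPS2 lie between -0.18 and 0.10.

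The 20 enzymes together made up 0.149% ± 0.00323 of the TPM in Null DMSO and 0.698% ± 0.0225 in Null MS78 (SD, n = 4). In the p53-Y220C line they made up 0.143% ± 0.00474 under DMSO and 0.681% ± 0.0175 under MS78. Their summed TPM was thus 4.67 times as high under MS78 in p53-null cells and 4.77 times as high in p53-Y220C cells. This sum leans on FDPS, which had 428 of 1494 TPM in Null DMSO and 2794 of 6978 in Null MS78. In Y220C DMSO FDPS had 319 of 1427 TPM and in Y220C MS78 1864 of 6805. The median log2 fold change of the 20 was 1.79 in p53-null cells and 1.86 in p53-Y220C cells. The libraries did not overlap: the lowest MS78 library had 6672 summed TPM and the highest DMSO library 1521. Of the 20 enzymes 18 passed the test upward in each line, and the remaining ones were PMVK and LBR in both.

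Both enzymes up to HMG-CoA rose in both lines. HMGCS1 (chr5:43289395-43313512, GRCh38), the synthase that joins acetyl-CoA and acetoacetyl-CoA into HMG-CoA, had the largest fold change of the 29 in both lines. Its level was 68.4, 72.1, 74.7 and 72.6 CPM in the 4 Null DMSO libraries and 809, 688, 779 and 704 CPM in Null MS78. In the p53-Y220C line it was 107, 98.7, 115 and 108 CPM under DMSO and 1303, 1310.3, 1349 and 1319.7 CPM under MS78. Every MS78 library lay far above every DMSO library of both lines. The log2 fold change was 3.37 ± 0.05 (SE, adjusted p = 1.86e-20 by edgeR's quasi-likelihood test) in p53-null cells and 3.62 ± 0.05 (adjusted p = 1.70e-21) in p53-Y220C cells, or 10.4-fold and 12.3-fold.

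ACAT2 (chr6:159760328-159779055), the cytosolic thiolase that makes the acetoacetyl-CoA used by HMGCS1, was at 115, 122, 111 and 113 CPM in Null DMSO and 542, 498, 516 and 523 CPM in Null MS78. In Y220C DMSO it was at 97.1, 95.01, 85.5 and 82.9 CPM and in Y220C MS78 at 455, 428, 439.9 and 432 CPM. The groups of each line were far apart, and the p53-Y220C libraries lay below the p53-null libraries under both treatments. The rise was 4.51-fold in p53-null cells and 4.87-fold in p53-Y220C cells (log2 2.17 ± 0.05 and 2.28 ± 0.05, SE).

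From mevalonate to the prenyl diphosphates, 5 of 6 enzymes rose in both lines. MVD (chr16:88651935-88663161), the decarboxylase that makes isopentenyl diphosphate, was at 77.5, 71.0, 72.6 and 65.7 CPM in Null DMSO and 699, 679.6, 755 and 697 CPM in Null MS78. It was at 72.9, 77.6, 66.7 and 60.8 CPM in Y220C DMSO and 798, 758, 771 and 769 CPM in Y220C MS78. The DMSO libraries of the lines overlapped, and the MS78 libraries of both lines lay between 679.6 and 798 CPM. MVD rose by a log2 fold change of 3.30 ± 0.06 and 3.48 ± 0.06 (SE), or 9.87-fold and 11.1-fold (adjusted p = 1.15e-19 and 2.86e-20).

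IDI1 (chr10:1039152-1049170), the isomerase that turns isopentenyl into dimethylallyl diphosphate, was at 82.2, 84.3, 90.2 and 88.6 CPM in Null DMSO and 682, 574, 639 and 603 CPM in Null MS78. Under DMSO the p53-Y220C libraries had 109.9, 105, 112 and 105 CPM of IDI1, and under MS78 922, 888, 923 and 899.6 CPM. The 4 groups were separate, with Y220C MS78 the highest. IDI1 rose 7.24-fold in p53-null cells and 8.41-fold in p53-Y220C cells.

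FDPS (chr1:155308748-155320666), farnesyl diphosphate synthase at the branch point to sterols, dolichol, ubiquinone and prenylated proteins, was the most abundant of the 29 per transcript length in every group. Its CPM values were 266, 277, 267 and 261 in Null DMSO and 1828, 1704, 1835 and 1823 in Null MS78. They were 221, 221, 199 and 192 in Y220C DMSO and 1306, 1210.0, 1246 and 1235 in Y220C MS78. Replicate 2 was the lowest of the Null MS78 libraries and still above all Y220C MS78 libraries. FDPS rose 6.71-fold in p53-null cells (log2 2.75 ± 0.04, adjusted p = 2.19e-20) and 6.001-fold in p53-Y220C cells (log2 2.59 ± 0.04, adjusted p = 1.71e-20).

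The other 3 enzymes of this segment differed among themselves. MVK, mevalonate kinase, rose from 17.4 ± 1.52 to 56.5 ± 1.81 CPM in p53-null cells and from 20.2 ± 0.846 to 66.6 ± 6.27 CPM in p53-Y220C cells (SD, n = 4), 3.24-fold and 3.30-fold. PMVK, the kinase between MVK and MVD, did not pass the test: it was at 36.4 ± 1.61 CPM in Null DMSO, 37.9 ± 1.35 in Null MS78, 28.7 ± 4.88 in Y220C DMSO and 28.1 ± 2.06 in Y220C MS78. Its 95% intervals for the log2 fold change, -0.11 to 0.22 and -0.21 to 0.15, lie far below the changes of MVK and MVD. GGPS1, which extends farnesyl to geranylgeranyl diphosphate and so leads away from sterols, rose 1.26-fold in p53-null cells and 1.51-fold in p53-Y220C cells, and its rise in p53-null cells was the smallest among the 18 enzymes called there.

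The 3 enzymes from farnesyl diphosphate to lanosterol all rose in both lines. FDFT1, squalene synthase and the first step that serves sterols alone, was at 237, 244, 233 and 214 CPM in Null DMSO and 878, 863, 875 and 921 CPM in Null MS78. In p53-Y220C cells FDFT1 was at 274, 282, 256 and 240.4 CPM under DMSO and 819, 805, 853 and 864 CPM under MS78. The MS78 libraries of the lines overlapped. FDFT1 rose 3.81-fold and 3.17-fold (log2 1.93 ± 0.05 and 1.67 ± 0.05).

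SQLE, squalene epoxidase, is an oxygen-dependent and tightly regulated step. It was at 109, 111, 116 and 117 CPM in Null DMSO and 494, 441, 487 and 466 CPM in Null MS78. Its values in Y220C DMSO were 135, 131, 135 and 138 CPM and in Y220C MS78 695, 679.5, 699 and 695 CPM. All 4 groups were separate for SQLE. The fold change of SQLE was 4.16 in p53-null cells (adjusted p = 1.05e-19) and 5.14 in p53-Y220C cells (adjusted p = 4.80e-21).

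LSS, which folds oxidosqualene into lanosterol, was at 160.0, 161, 161 and 149 CPM in Null DMSO and 552, 565, 565 and 532 CPM in Null MS78. In p53-Y220C cells LSS was at 165, 175, 165 and 156 CPM and 512, 517, 518 and 519 CPM. The lines overlapped under DMSO, and under MS78 the p53-Y220C libraries lay just below the p53-null ones. LSS rose 3.52-fold and 3.13-fold.

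From lanosterol to cholesterol, 8 of 9 enzymes rose in each line. MSMO1 (chr4:165327623-165343160), the C4-methyl sterol oxidase, was at 39.0, 34.8, 40.6 and 34.1 CPM in Null DMSO and 296, 258, 293 and 273 CPM in Null MS78. Its Y220C DMSO libraries had 49.7, 52.1, 55.1 and 50.5 CPM and its Y220C MS78 libraries 542, 510.4, 535 and 504 CPM. No 2 groups overlapped, and Y220C MS78 was well above Null MS78. MSMO1 rose 7.54-fold in p53-null cells (log2 2.92 ± 0.06, adjusted p = 2.96e-19) and 10.1-fold in p53-Y220C cells (log2 3.33 ± 0.06, adjusted p = 1.40e-20).

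SC5D (chr11:121292453-121308694), the desaturase that makes the substrate of DHCR7, was at 29.6, 31.7, 31.7 and 31.4 CPM in Null DMSO and 90.0, 75.0, 89.3 and 85.2 CPM in Null MS78. In the other line its values were 38.9, 34.7, 39.8 and 34.5 CPM in Y220C DMSO and 145, 144, 153 and 146 CPM in Y220C MS78. The Y220C MS78 libraries were the highest, with a clear gap to Null MS78. SC5D rose 2.72-fold and 3.98-fold.

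CYP51A1 (chr7:92112151-92134803), the lanosterol demethylase and the target of azole drugs in fungi, was at 172, 162, 165 and 165 CPM in Null DMSO and 414, 390.0, 413 and 396 CPM in Null MS78. It was at 184, 184, 178 and 184 CPM in Y220C DMSO and 568, 576, 595 and 556 CPM in Y220C MS78. The DMSO groups of the lines were close but separate, and the MS78 groups were wide apart. Its rise was 2.43-fold in p53-null cells and 3.15-fold in p53-Y220C cells.

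DHCR7 (chr11:71428193-71452868), the reductase that turns 7-dehydrocholesterol into cholesterol, was at 122, 123, 119.6 and 104 CPM in Null DMSO and 387, 386, 408 and 405 CPM in Null MS78. The p53-Y220C libraries had 128, 127, 122 and 117 CPM under DMSO and 541, 516, 525 and 520.3 CPM under MS78. The lines overlapped under DMSO and not under MS78. DHCR7 rose 3.39-fold and 4.25-fold.

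Both TM7SF2 and LBR can carry out the sterol reduction that follows CYP51A1, and their RNAs moved differently. TM7SF2 (chr11:65111845-65116384), the form in the endoplasmic reticulum, was at 72.3, 66.5, 73.5 and 66.6 CPM in Null DMSO and 126, 134, 133 and 128 CPM in Null MS78. It was at 66.7, 69.5, 65.0 and 60.2 CPM in Y220C DMSO and 97.2, 93.99, 97.99 and 89.0 CPM in Y220C MS78. The lines overlapped under DMSO, and under MS78 every p53-Y220C library lay below every p53-null library. TM7SF2 rose 1.87-fold in p53-null cells and 1.45-fold in p53-Y220C cells. LBR, the lamin B receptor of the inner nuclear membrane with the same reductase activity, was at 104 ± 1.99 CPM in Null DMSO, 101 ± 1.74 in Null MS78, 96.8 ± 2.61 in Y220C DMSO and 99.3 ± 1.63 in Y220C MS78 and did not pass the test (95% intervals of the log2 change -0.11 to 0.02 and -0.03 to 0.11). On the TPM scale TM7SF2 was 1.72 to 2.19 times LBR in the Null DMSO libraries and 3.65 to 4.04 times in Null MS78. The ratio was 1.58 to 2.05 in Y220C DMSO and 2.36 to 2.85 in Y220C MS78.

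The other late enzymes rose at least 2-fold in both lines. NSDHL, the C4 decarboxylating dehydrogenase, went from 29.9 ± 0.974 to 71.7 ± 2.76 CPM in p53-null cells and from 39.8 ± 1.94 to 85.8 ± 2.39 CPM in p53-Y220C cells. HSD17B7, the C3-keto reductase that follows it, had the lowest CPM of the 29 under DMSO and went from 9.61 ± 0.668 to 38.9 ± 2.52 CPM and from 10.9 ± 1.04 to 51.7 ± 1.78 CPM. EBP, the sterol isomerase also known as emopamil-binding protein, went from 51.7 ± 4.31 to 124 ± 6.90 CPM and from 53.05 ± 6.64 to 139 ± 4.71 CPM. Their folds in p53-null cells were 2.40, 4.04 and 2.40, and in p53-Y220C cells 2.16, 4.72 and 2.62.

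**Figure D2:**
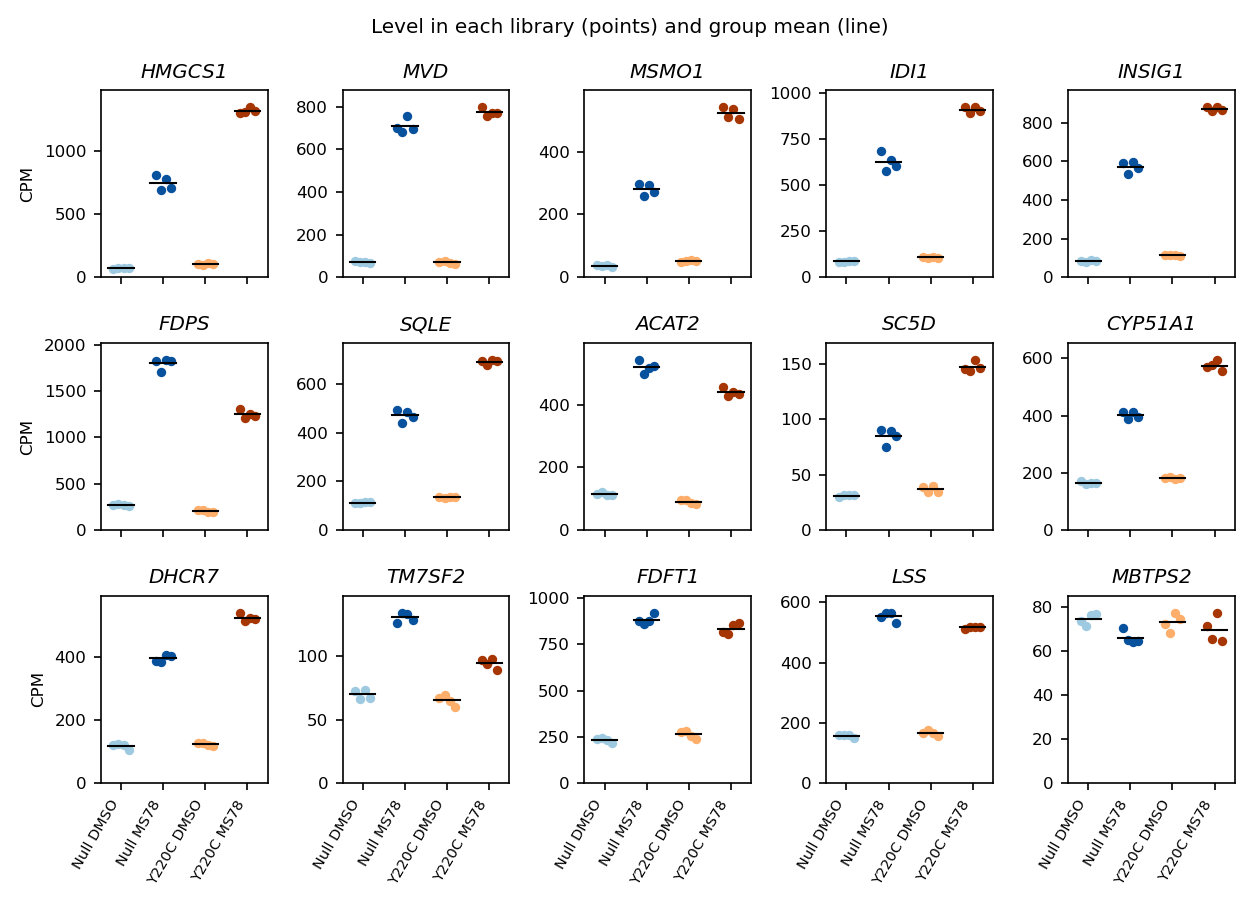
CPM of 15 genes in each of the 16 libraries (points) with the group mean (line), on linear axes that start at 0. In 14 panels every MS78 library lies above every DMSO library of its line, and MBTPS2 is the exception, with 64.1 to 70.2 CPM in Null MS78 against 71.4 to 76.8 CPM in Null DMSO. The panels were chosen for the largest called changes or differences, or a change against the majority. Of all tested genes, 29.3% in p53-null cells and 41.3% in p53-Y220C cells had no overlap, in either direction.

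Among the 6 genes of SREBP2 control 4 rose in each line, and INSIG1 had the largest rise. INSIG1 (chr7:155297776-155310235), which retains SCAP in the endoplasmic reticulum, was at 82.5, 80.1, 88.7 and 81.8 CPM in Null DMSO and 594, 536, 595 and 564 CPM in Null MS78. In p53-Y220C cells it was at 116, 115, 118 and 109.6 CPM under DMSO and 882, 861, 879.6 and 868 CPM under MS78. The 4 groups did not overlap. INSIG1 rose 6.87-fold (log2 2.78 ± 0.04, adjusted p = 1.00e-20) and 7.63-fold (log2 2.93 ± 0.04, adjusted p = 8.69e-22).

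Its paralog INSIG2, which holds SCAP in the same way, rose far less, from 21.4 ± 1.78 to 28.996 ± 0.907 CPM in p53-null cells (1.36-fold) and from 21.9 ± 1.75 to 26.8 ± 1.31 CPM in p53-Y220C cells (1.22-fold). Within the libraries without leukocyte reads the INSIG2 rise no longer passed in either line (adjusted p = 0.0637 and 0.147). On the TPM scale INSIG1 was 4.00 to 4.53 times INSIG2 in Null DMSO and 19.4 to 23.3 times in Null MS78. The ratio was 4.85 to 5.34 in Y220C DMSO and 31.2 to 36.4 in Y220C MS78. SREBF2 rose modestly and almost equally in both lines, from 226 ± 2.88 to 357 ± 3.95 CPM and from 234 ± 3.51 to 371 ± 5.84 CPM, 1.58-fold and 1.59-fold. The antisense gene SREBF2-AS1 lies at its start, and whether the counting used strand is not given in the sources used here.

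The escort and the proteases changed little. SCAP was at 95.9 ± 6.08 CPM in Null DMSO and 94.1 ± 1.45 CPM in Null MS78 (adjusted p = 0.708). In p53-Y220C cells SCAP rose from 80.6 ± 3.61 to 95.8 ± 2.83 CPM, 1.19-fold (adjusted p = 1.12e-04), which within the libraries without leukocyte reads no longer passed (log2 0.19, adjusted p = 0.189). MBTPS1, the site-1 protease, was at 243 ± 10.1 CPM in Null DMSO and 260.4 ± 4.53 CPM in Null MS78 and passed narrowly (1.07-fold, adjusted p = 0.0470). Its groups overlapped, and the call was lost without any one of the Null DMSO replicates 1, 2 and 4 or of the 4 Null MS78 replicates, with adjusted p from 0.0546 to 0.181. It was also lost within each set of libraries (adjusted p = 0.105 with leukocyte reads and 0.766 without). In p53-Y220C cells MBTPS1 was at 195 ± 7.42 and 191 ± 4.01 CPM (adjusted p = 0.546).

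MBTPS2 (chrX:21839636-21885424), the site-2 protease that makes the last cut on SREBP2, was the 1 gene called lower in p53-null cells. It was at 73.6, 71.4, 76.4 and 76.8 CPM in Null DMSO and 70.2, 64.9, 64.1 and 64.4 CPM in Null MS78. In Y220C DMSO its values were 71.9, 67.9, 77.2 and 74.1 CPM and in Y220C MS78 71.1, 65.1, 77.2 and 64.4 CPM. The p53-null groups were narrowly separate, and the p53-Y220C groups overlapped. The level in p53-null cells under MS78 was 0.884-fold that under DMSO (log2 -0.18 ± 0.05, adjusted p = 0.0174), and the fall no longer passed without Null MS78 replicate 3 (adjusted p = 0.0537) or within either set of libraries (adjusted p = 0.124 with leukocyte reads and 0.640 without).

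The sterol transport and storage genes rose in both lines. STARD4, a carrier of sterol through the cytosol, went from 36.0 ± 2.29 to 108 ± 5.33 CPM in p53-null cells and from 44.7 ± 3.83 to 168 ± 7.70 CPM in p53-Y220C cells, 3.01-fold and 3.75-fold. TMEM97, the sigma-2 receptor, a sterol-regulated protein that binds NPC1, rose 1.42-fold and 1.66-fold. SOAT1, which esterifies cholesterol for storage, rose 1.12-fold (adjusted p = 0.00869) and 1.29-fold (adjusted p = 1.04e-06). In p53-null cells the SOAT1 call was lost within each set of libraries, with adjusted p = 0.280 with leukocyte reads and 0.109 without, and with length-scaled TPM counts (adjusted p = 0.362).

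The main rises were about as large within each set of libraries. With leukocyte reads the log2 fold changes in p53-null cells were 3.39 for HMGCS1, 3.18 for MVD and 2.76 for INSIG1. Without them they were 3.46, 3.32 and 2.83. In p53-Y220C cells the same genes had 3.64, 3.40 and 2.92 with leukocyte reads and 3.60, 3.55 and 2.95 without. In all, 23 and 22 of the 29 rose in p53-null cells within these sets, and 25 and 23 in p53-Y220C cells. The median log2 fold changes of the 29 were 1.47 and 1.51 in p53-null cells and 1.66 and 1.65 in p53-Y220C cells. Over all genes these medians lay between -0.01 and 0.01. The subset fits called smaller shares of all genes than the main fit, so its shares do not apply to these counts. Each set has 1 library in one arm of each line, which was assumed to vary like the others.

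Ranked by TPM, the 29 genes kept FDPS and FDFT1 among the top 3 in every group while others moved. HMGCS1 went from rank 18 at 31.2 ± 0.958 TPM in Null DMSO to rank 6 at 298 ± 24.7 TPM in Null MS78, and from rank 14 to rank 5 in p53-Y220C cells, where it reached 519.9 ± 23.2 TPM. INSIG1 went from rank 14 to rank 5 and from rank 9 to rank 6. FDPS was first throughout, at 428 ± 8.54 TPM in Null DMSO and 2794 ± 96.6 TPM in Null MS78, and at 319 ± 19.8 and 1864 ± 63.5 TPM in the p53-Y220C line. LBR went from rank 16 to 24 and from 17 to 23, with a mean TPM that stayed between 36.0 and 39.4. At the low end, INSIG2 had 12.1 TPM in Null DMSO and 16.2 TPM in Null MS78, and TMEM97 13.3 and 18.4 TPM.

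Transcript estimates, which rest on reads that the quantifier divides between overlapping isoforms, gave the same picture for HMGCS1. Its main isoforms HMGCS1-201 and HMGCS1-202 held 43.4 ± 6.72% and 45.4 ± 5.38% of its TPM in Null DMSO and 49.5 ± 2.52% and 45.4 ± 1.53% in Null MS78 (SD, n = 4). For MVD the shares moved. The short coding isoform MVD-217 held 26.8 ± 1.58% of MVD TPM in Null DMSO and 8.56 ± 0.609% in Null MS78, and 22.1 ± 3.49% and 10.0 ± 0.657% in Y220C DMSO and Y220C MS78. The ranges did not overlap in either line, while MVD-217 itself was at 23.3 ± 2.36 TPM in Null DMSO and 65.6 ± 8.25 TPM in Null MS78. These shares were not tested.

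Promoter sequence from RefSeq (GRCh38.p14) was matched for 26 of the 29 genes, in windows from 250 bases before to 50 bases after each annotated start. ACAT2, FDFT1 and SQLE were not matched. SREBP2 binds sterol regulatory elements together with the factors NF-Y and Sp1, so 3 letter patterns were searched on both strands: TCACNCCAC for a sterol regulatory element type, CCAAT for NF-Y and GGGCGG for Sp1. Overlapping matches were counted. CCAAT was found for 19 of the 26 genes (73.1%), against 39.7% of all 27305 genes with windows. GGGCGG was found for 22 of 26, against 48.3% of all genes, and TCACNCCAC for 1, SREBF2, against 1.39%. The 27305 genes were not limited to those tested here, while all 29 members were tested, so the shares are not matched for expression. Whether expressed genes in general hold these letters more often was not tested. A match describes letters only and does not show that a factor binds there. The 19 genes with CCAAT all rose in both lines, with log2 fold changes from 0.16 to 3.37 in the p53-null line and from 0.37 to 3.62 in the p53-Y220C line, and 14 of them rose at least 2-fold in each. The 7 without CCAAT in any window were CYP51A1, INSIG2, LBR, MBTPS1, MBTPS2, PMVK and SCAP. Of these 3 rose in each line, CYP51A1 alone at least 2-fold, and their median log2 fold change was 0.06 in the first line and 0.04 in the second. INSIG2, MBTPS1, MBTPS2 and SCAP among them belong to SREBP2 control. The responses of genes outside the 29 with and without CCAAT were not examined.

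Shown for comparison are the promoter stretches of 5 genes that rose and have CCAAT (HMGCS1, MVD, MSMO1, INSIG1 and SREBF2) and of 3 without it that changed little or not at all by the test (INSIG2, LBR and MBTPS2). Each is the longest part of the 250 bases before the start that lies in no exon of a protein-coding gene, read 5′ to 3′ on the strand of the gene. Capitals mark CCAAT or its reverse complement ATTGG, and in SREBF2 also the sterol-type match. The genes shown were picked by their response, so the display cannot show how motif and response go together. CYP51A1, which rose without CCAAT, and SOAT1 and GGPS1, which have CCAAT and rose little in p53-null cells, are not shown. The stretches lie at chr5:43313513-43313662 (minus strand) for HMGCS1, chr16:88663162-88663341 (minus strand) for MVD, chr4:165327419-165327622 (plus strand) for MSMO1, chr7:155297628-155297775 (plus strand) for INSIG1 and chr22:41832855-41833078 (plus strand) for SREBF2. Those of the other 3 lie at chr2:118088221-118088451 (plus strand) for INSIG2, chr1:225428926-225429071 (minus strand) for LBR and chrX:21839367-21839616 (plus strand) for MBTPS2.
HMGCS1: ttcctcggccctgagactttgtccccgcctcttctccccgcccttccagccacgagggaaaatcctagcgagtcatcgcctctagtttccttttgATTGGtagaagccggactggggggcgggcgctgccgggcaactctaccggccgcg
MVD: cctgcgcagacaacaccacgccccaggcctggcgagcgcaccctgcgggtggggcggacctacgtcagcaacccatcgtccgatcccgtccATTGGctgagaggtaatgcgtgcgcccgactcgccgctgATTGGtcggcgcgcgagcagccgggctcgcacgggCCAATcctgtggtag
MSMO1: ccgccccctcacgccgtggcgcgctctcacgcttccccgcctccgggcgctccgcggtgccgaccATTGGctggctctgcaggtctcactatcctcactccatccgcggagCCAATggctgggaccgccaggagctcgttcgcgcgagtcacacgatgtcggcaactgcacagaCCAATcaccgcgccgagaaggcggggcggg
INSIG1: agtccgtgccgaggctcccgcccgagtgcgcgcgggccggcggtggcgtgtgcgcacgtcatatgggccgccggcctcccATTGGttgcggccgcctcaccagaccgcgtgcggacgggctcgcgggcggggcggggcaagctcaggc
SREBF2: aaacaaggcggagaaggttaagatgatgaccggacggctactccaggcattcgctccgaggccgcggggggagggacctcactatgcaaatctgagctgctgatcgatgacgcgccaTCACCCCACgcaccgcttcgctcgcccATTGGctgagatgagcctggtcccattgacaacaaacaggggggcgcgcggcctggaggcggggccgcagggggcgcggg
INSIG2: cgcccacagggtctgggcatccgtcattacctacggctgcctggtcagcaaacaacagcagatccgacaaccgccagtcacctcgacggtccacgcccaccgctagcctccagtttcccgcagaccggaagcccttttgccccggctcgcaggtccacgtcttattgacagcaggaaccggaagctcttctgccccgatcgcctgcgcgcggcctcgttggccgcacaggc
LBR: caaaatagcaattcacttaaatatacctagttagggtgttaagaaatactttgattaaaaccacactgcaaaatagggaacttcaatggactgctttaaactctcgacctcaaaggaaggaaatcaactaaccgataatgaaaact
MBTPS2: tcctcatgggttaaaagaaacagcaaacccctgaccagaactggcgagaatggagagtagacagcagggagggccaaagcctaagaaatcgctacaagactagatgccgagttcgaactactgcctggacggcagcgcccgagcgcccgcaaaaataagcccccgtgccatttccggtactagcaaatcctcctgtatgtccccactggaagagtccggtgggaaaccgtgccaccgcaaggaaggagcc

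MVD and MSMO1, with log2 fold changes of 3.30 and 2.92 in p53-null cells, each show 3 such motifs in the stretch. In SREBF2 the sterol-type match TCACCCCAC begins at position -133 from the start and is followed by ATTGG, and SREBF2 rose 1.58-fold in p53-null cells. HMGCS1 and INSIG1, with log2 fold changes of 3.37 and 2.78, show 1 each. The stretches are shorter than the windows searched, in which HMGCS1 has up to 2 and MSMO1 has 4. MVK and NSDHL, not shown, have 5 each in their windows and rose less than these 4 enzymes and INSIG1. Whether the number of motifs goes with the response was not tested.

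The size of the response differed between the lines for 15 of the 29 genes. It was larger in p53-Y220C than in p53-null cells for 12 of 29 genes, where 14.4% of all tested genes had a larger response, and smaller for 3, against 12.4% of all genes (interaction term of the edgeR fit). The median difference over the 29 was 0.15 on the log2 scale, beside -0.02 over all genes, and none reached 2-fold. Of the 9 enzymes from lanosterol to cholesterol 4 had a larger response, 1 a smaller one and 4 did not pass. SC5D had a log2 fold change of 1.45 in p53-null cells and 1.99 in p53-Y220C cells, a difference of 0.55 ± 0.08 (SE, adjusted p = 4.45e-05). For MSMO1 the difference was 0.42 ± 0.08 (adjusted p = 4.60e-04), for CYP51A1 0.38 ± 0.05 (adjusted p = 4.70e-06) and for DHCR7 0.33 ± 0.06 (adjusted p = 6.35e-04). STARD4, SQLE, SCAP, GGPS1, HMGCS1, IDI1, SOAT1 and INSIG1 made up the rest, with differences from 0.15 to 0.32.

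TM7SF2, FDFT1 and LSS rose less in p53-Y220C cells. The differences were -0.37 ± 0.07 (adjusted p = 3.59e-04) for TM7SF2, -0.26 ± 0.07 (adjusted p = 0.00556) for FDFT1 and -0.17 ± 0.05 (adjusted p = 0.0190) for LSS. Smaller responses were no more frequent among the 29 (10.3%) than among all genes (12.4%). In the main fit SQLE had the larger response in p53-Y220C cells and its neighbours FDFT1 and LSS the smaller one. With length-scaled TPM counts the LSS difference was -0.00 (edgeR, adjusted p = 0.976). On the TPM scale SQLE was 0.792 to 0.897 times LSS in Null DMSO and 0.981 to 1.14 times in Null MS78. It was 0.976 to 1.16 times LSS in Y220C DMSO and 1.55 to 1.72 times in Y220C MS78, so the lines were apart in this ratio under both treatments. For 14 genes the difference did not pass. Among them MVD had a 95% interval, not adjusted for the number of genes, of 0.00 to 0.35, ACAT2 of -0.03 to 0.25 and SREBF2 of -0.07 to 0.09, so differences within these bounds remain possible. FDPS (difference -0.16 ± 0.06, adjusted p = 0.0526) passed as a smaller response in 9 alternatives, DESeq2 and the filter of 1 CPM among them (adjusted p from 0.00736 to 0.0472), and MBTPS1 (difference -0.13 ± 0.05) in 4 (adjusted p from 0.0169 to 0.0496). HSD17B7, NSDHL and TMEM97 each passed in 2 alternatives and MVD in 1.

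The called differences kept their sign under every alternative run, but not all stayed called. Within libraries with leukocyte reads 10 of 29 passed, 7 larger and 3 smaller. Within libraries without them 0 of 29 passed in edgeR (5 at an unadjusted p under 0.05, and no other tool was run on these 8 libraries). There the values were 0.50 for SC5D, 0.35 for MSMO1, 0.31 for CYP51A1 and -0.28 for TM7SF2. The median difference of the 29 was 0.15 with leukocyte reads, beside 0.00 over all genes, and 0.15 without, beside -0.01. Both subset fits called far smaller shares of all genes than the main fit. The loss of calls within them was therefore not particular to the 29. With counts rebuilt from TPM and transcript length, 7 larger and 2 smaller responses passed and the LSS difference was -0.00. With library totals alone the split was 8 larger and 6 smaller, and among all called genes the share of larger responses was 39.4% against 53.8%. The INSIG1 difference was lost without any one of 11 libraries, namely Null DMSO replicates 1 and 3, Null MS78 replicates 2 and 4, Y220C DMSO replicates 1, 2 and 4 and every Y220C MS78 replicate, with adjusted p from 0.0556 to 0.109. That of GGPS1 was lost without Null MS78 replicate 3 (0.0501) or Y220C MS78 replicate 3 (0.0525), and that of SOAT1 without Null MS78 replicate 2 (0.0545) or Y220C MS78 replicate 3 (0.0544), as adjusted p.

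**Figure D3:**
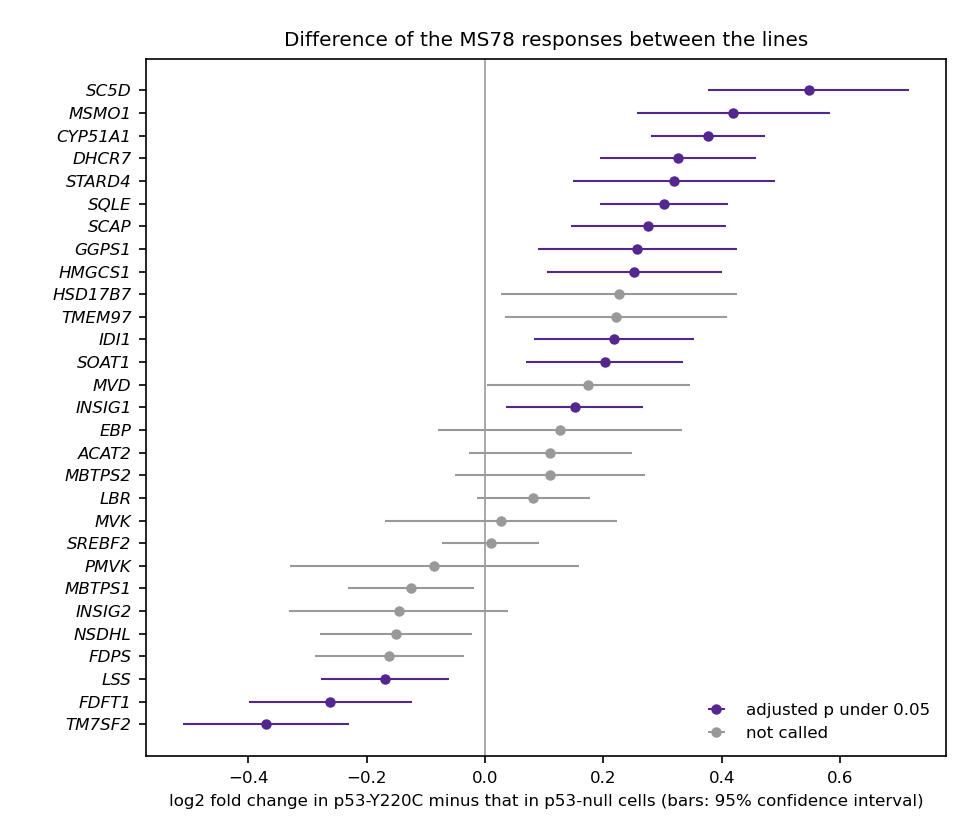
Difference of the log2 fold changes (p53-Y220C minus p53-null cells) for the 29 genes with 95% confidence intervals, in order of size, with those at an adjusted p under 0.05 in purple. SC5D is highest at 0.55 and TM7SF2 lowest at -0.37.

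The lines also differed before treatment. Under DMSO 13 of 29 genes were higher in p53-Y220C cells, against 24.7% of all genes, and 6 were lower, against 25.5% of all genes. HMGCS1 had the largest difference, 1.49-fold higher (log2 0.57 ± 0.05, adjusted p = 1.76e-08), followed by MSMO1 (1.40-fold) and INSIG1 (1.37-fold). The 6 lower genes were FDPS (0.777-fold), ACAT2 (0.782-fold), PMVK (0.788-fold), MBTPS1 (0.800-fold), SCAP (0.841-fold) and LBR (0.929-fold). The HSD17B7 difference (adjusted p = 0.0499) was lost with DESeq2 (adjusted p = 0.0580) and without Null DMSO replicate 1, 2 or 4 or Y220C DMSO replicate 1 or 4 (adjusted p from 0.0553 to 0.207). The MVK difference (adjusted p = 0.0194) was lost without Null DMSO replicate 1 or 4 or Y220C DMSO replicate 2 (adjusted p from 0.0534 to 0.0713), and that of GGPS1 without Y220C DMSO replicate 1 (adjusted p = 0.0615). Within the libraries with leukocyte reads the median log2 difference of the 29 was 0.06, beside -0.01 over all genes. Within those without it was 0.08, beside 0.01. Each set called a smaller share of all genes than the main fit. MVK, FDFT1, LBR and HSD17B7 passed in neither set, CYP51A1 did not pass with leukocyte reads, and GGPS1 did not pass without them.

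Under MS78 17 of 29 were higher in p53-Y220C cells, against 30.7% of all genes, and 6 were lower, against 31.2%. MSMO1 was 1.87-fold higher (log2 0.90 ± 0.05), HMGCS1 1.77-fold and SC5D 1.73-fold. FDPS was 0.695-fold, TM7SF2 0.725-fold, MBTPS1 0.734-fold, PMVK 0.743-fold, ACAT2 0.844-fold and LSS 0.933-fold the level of p53-null cells. Within libraries with leukocyte reads the median log2 difference of the 29 was 0.18, beside -0.01 over all genes. Within those without it was 0.22, beside 0. Fewer of the 29, and a far smaller share of all genes, were called without leukocyte reads. The calls of MVD, EBP and LSS did not hold when some single libraries were left out (adjusted p from 0.0551 to 0.126). MVD and EBP were lost without Null MS78 replicate 1 or 2 or Y220C MS78 replicate 1 or 4. MVD was also lost without Null MS78 replicate 4 or Y220C MS78 replicate 2 or 3. LSS was lost without Null MS78 replicate 2 or 3. Line, transgene and G418 cannot be told apart in these values.

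A list of 61 other sterol and isoprenoid genes, of which 59 were tested, was set beside the 29. In p53-null cells 20 rose and 9 fell, with a median log2 fold change of 0.04, and in p53-Y220C cells 31 rose and 10 fell, with a median of 0.16. The share that rose was 33.9% in p53-null cells, against 14.8% of all genes, and 52.5% in p53-Y220C cells, against 24.9%. The share that fell was 15.3% against 13.3% and 16.9% against 23.6%, near or below that of all genes. ACSS2 and ACLY, from the list of genes that supply acetyl-CoA and electrons, had the largest rises of the 59. The median log2 fold change of that list was 0.36 in p53-null cells and 0.40 in p53-Y220C cells. ACSS2, the cytosolic acetyl-CoA synthetase, went from 59.8 ± 1.61 to 298 ± 15.8 CPM in p53-null cells (4.98-fold, adjusted p = 3.57e-20) and from 65.2 ± 1.94 to 426 ± 4.75 CPM in p53-Y220C cells (6.53-fold). ACLY, ATP-citrate lyase, rose 3.81-fold and 4.16-fold. Of the 9 tested genes of that list 5 rose in each line (55.6%, against 14.8% and 24.9% of all genes), and 1 fell in p53-Y220C cells.

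Of 18 genes of uptake, lysosomal release and transport, 8 rose (44.4%, against 14.8% of all genes) and 1 fell in p53-null cells and 11 rose (61.1%, against 24.9%) and 1 fell in p53-Y220C cells. LIPA, the lysosomal lipase that frees cholesterol from esters, rose 1.77-fold and 2.05-fold. NPC2, which binds the freed cholesterol in the lysosome, rose 1.93-fold in p53-null cells, and NPC1, which passes it through the lysosomal membrane, rose 1.70-fold in p53-null cells and 2.52-fold in p53-Y220C cells. Of the 12 genes of sterol sensing and ER degradation, 4 rose and 2 fell in p53-null cells and 7 rose and 3 fell in p53-Y220C cells. The counts that fell were near the share of all genes, 13.3% and 23.6%, and the shares that rose were 33.3% and 58.3%. RNF145, a sterol-responsive ubiquitin ligase, went from 137 ± 6.36 to 196 ± 3.51 CPM in p53-null cells and from 109 ± 2.83 to 349.9 ± 1.15 CPM in p53-Y220C cells, with a difference of responses of 1.17 ± 0.05 (SE, adjusted p = 4.61e-13). ERLIN1, a membrane protein of the ER that takes part in sterol-dependent degradation, fell, to 0.785-fold and 0.791-fold of its DMSO level.

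Of the 15 genes of the isoprenoid branch, which leaves the pathway before squalene, 2 rose and 4 fell in p53-null cells and 6 rose and 3 fell in p53-Y220C cells, and the largest size of log2 fold change was 0.41. The count that rose in p53-null cells and the count that fell in p53-Y220C cells were near the share of all genes, 14.8% and 23.6%. COQ2, the prenyltransferase of ubiquinone synthesis, fell to 0.793-fold in p53-null cells, and NUS1, a subunit of the dolichol-making prenyltransferase, rose 1.32-fold in p53-Y220C cells. Of the 5 tested genes of esters, efflux and the sterol receptor LXR, 1 rose and 2 fell in p53-null cells and 2 rose and 2 fell in p53-Y220C cells, too few to set against the 14.8% to 24.9% higher and 13.3% to 23.6% lower among all genes. ABCA1, the exporter of cholesterol to apolipoproteins and a target of LXR, fell from 35.9 ± 1.49 to 15.4 ± 0.612 CPM in p53-null cells (0.430-fold, adjusted p = 2.81e-12) and from 29.4 ± 2.26 to 13.4 ± 1.02 CPM in p53-Y220C cells (0.454-fold, adjusted p = 7.46e-12).

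**Figure D4:**
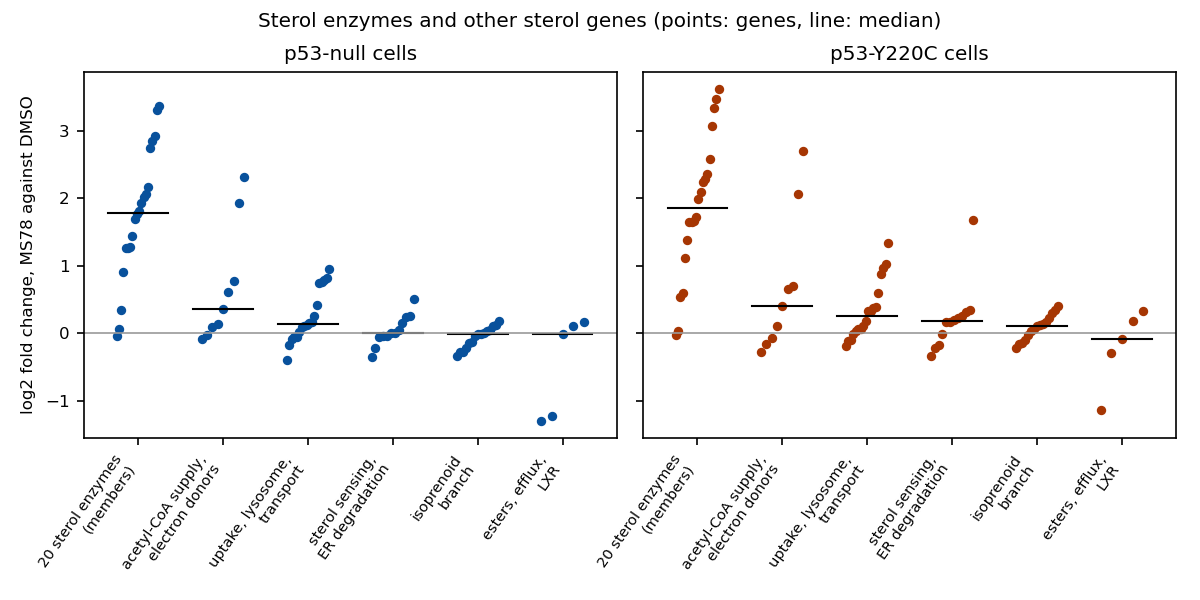
Log2 fold change with MS78 against DMSO for the 20 sterol enzymes and for 5 lists of other sterol genes, in p53-null cells (left) and p53-Y220C cells (right), with 1 point per tested gene and the list median as a line. The median of the enzymes is 1.79 and 1.86, and those of the other lists lie between -0.09 and 0.40.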

How the data were processed

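The 16 libraries were grouped by the cell line and treatment that their labels give. The deposited tables have the columns of Salmon and give each transcript an estimated count without normalization, not always whole, per the file headers. The TPM values, scaled to effective transcript length and a common sum, and the lengths themselves in other columns, were also made by the authors, per the file headers. FastQC 0.11.8 and hg38 are named in the submitters' processing notes. The quantifier's version, its annotation and any trimming were not given in the sources used here.

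Of 197653 transcripts 193348 (97.8%) matched GENCODE 29 by identifier. Their counts were summed into 56865 genes and rounded, and unmatched transcripts (0.278% to 0.325% of the reads of a library) were left out. Total reads were 20.3 to 27.7 M (in units of 1000000) per library, and precision at low levels is limited by counting error. The tests were quasi-likelihood F-tests of edgeR 4.0.16 in R 4.3.3, with filterByExpr and TMM, in 1 fit of all 16 libraries with 12 residual degrees of freedom, and p-values were adjusted by Benjamini-Hochberg over the 15687 genes tested, with a threshold of 0.05. A log2 fold change has an SE of its size divided by the square root of F. Alternatives were DESeq2 1.42.0, RLE size factors, library totals, other filters, length-scaled TPM, a replicate block, fits of 2 groups, terms and subsets for leukocyte reads (at least 10 PTPRC reads), and leaving out each library.

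Between libraries of 1 group the chi-square per gene was 2.53 to 11.3, so none repeated another. The members and gene lists were chosen with earlier results of these data known. Values in every library are given for the 8 genes with the largest fold change, for up to 4 with the largest called difference of responses in each direction, and for any called against the majority. Of each other list, up to 2 called genes with the largest fold change and at least 1 CPM are named.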

Additional observations from a re-analysis of the deposited data

Results flagged for a closer look

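Among 116 groups of 4 libraries (29 genes in 4 groups), 9 held 1 library whose distance to the nearest other library was most of the range of the group. Chance gives this for about 1 group in 20. In Null DMSO replicate 4, LSS (149 CPM), DHCR7 (104 CPM) and SCAP (86.8 CPM) were lowest and SOAT1 (67.3 CPM) was highest. In Null DMSO replicate 1, SC5D was lowest at 29.6 CPM. In Null MS78, FDPS was lowest in replicate 2 at 1704 CPM and MBTPS2 highest in replicate 1 at 70.2 CPM, the 1 library of that group without leukocyte reads. In Y220C DMSO, MVK was highest in replicate 2 at 21.5 CPM and CYP51A1 lowest in replicate 3 at 178 CPM.

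The responses to MS78 differed between the lines for 15 genes by the interaction term of the edgeR fit. The difference of log2 fold changes, p53-Y220C minus p53-null cells, was 0.55 for SC5D, 0.42 for MSMO1, 0.38 for CYP51A1, 0.33 for DHCR7, 0.32 for STARD4 and 0.30 for SQLE. It was 0.28 for SCAP, 0.26 for GGPS1, 0.25 for HMGCS1, 0.22 for IDI1, 0.20 for SOAT1 and 0.15 for INSIG1. LSS had -0.17, FDFT1 -0.26 and TM7SF2 -0.37. All 15 had the same sign in the libraries with and in those without leukocyte reads.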

How the results depend on the processing

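No called value of a member changed sign under any alternative run. The counts of rising genes with MS78 were 22 to 25 of 29 in p53-null cells and 23 to 25 in p53-Y220C cells under all of them, and leaving out 1 library gave 24 to 25 and 25. The count of falling genes in p53-null cells (1) was 2 with library totals, 0 with a term for leukocyte reads and 0 within each set of libraries, and 0 to 1 when 1 library was left out (0 without Null MS78 replicate 3). In p53-Y220C cells library totals gave 2 falling genes in place of 0. The difference of responses (15 genes, 12 larger and 3 smaller) had 5 smaller with DESeq2, 6 smaller with library totals, and 9 genes of which 7 larger with length-scaled TPM. Within libraries with leukocyte reads 7 were larger, within those without 0 were larger, 0 smaller and 0 in all, and leaving out 1 library gave 12 to 16 genes, 9 to 12 larger and 3 to 5 smaller (5 without Y220C DMSO replicate 4). Between the lines under MS78 the libraries without leukocyte reads gave 15 genes in place of 23, 3 of them lower in place of 6. Over all genes, length-scaled TPM gave 2839 called in p53-null cells (4402 otherwise) and 2745 for the difference of responses (4197). The libraries with leukocyte reads gave 2346 in p53-null cells, 1870 for the difference and 3817 for the lines under DMSO (7875). Those without gave 1070 in p53-null cells, 3490 in p53-Y220C cells (7611), 411 for the difference and 4184 for the lines under MS78 (9699). These subsets hold fewer libraries, and the cause of the other shifts was not tested.

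Same-numbered libraries of different groups showed no single pattern (correlations of deviations from -0.502 to 0.531, median -0.0816, 24 pairs), so the numbers were not taken as pairs. Replicate 1 did share deviations: Null DMSO 1 with Y220C DMSO 1 had 0.452, and Null MS78 1 with Y220C MS78 1 had 0.531. Each DMSO replicate 1 against each MS78 replicate 1 had -0.502 to -0.460. In the DMSO groups replicate 1 has leukocyte reads, and in the MS78 groups it has not. Pairs of other numbers had -0.298 to 0.273. The source of this shared deviation was not tested. With the replicate block, 25 genes changed with MS78 in p53-null cells and 25 in p53-Y220C cells, 16 differed in response, and 19 and 22 differed between the lines under DMSO and MS78. Over all genes the block gave 4251, 7442, 4060, 7774 and 9623 calls. MBTPS1 in p53-null cells (adjusted p = 0.0545) and EBP between the lines under MS78 (0.0502) were lost, and the difference for HSD17B7 (0.0402) was gained.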
